A study of Arabidopsis thaliana with 20 samples.

Results

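The 5 *Arabidopsis* class III homeodomain-leucine zipper (HD-ZIP III) genes were described here by the small RNAs that map to them: *REVOLUTA* (*REV*, *AT5G60690*), *PHABULOSA* (*PHB*, *AT2G34710*), *PHAVOLUTA* (*PHV*, *AT1G30490*), *ATHB15* (*AT1G52150*) and *ATHB8* (*AT4G32880*). They were taken by identifier from a table of 27415 genes, with earlier results of these data known. All 5 were among the 2916 genes that passed the filter on low counts. Small RNAs of 21 and 22 nt were counted in 20 libraries from closed flower buds of plants in the Col-0 background. The wild type (col0) had 3 libraries. The *cer7* mutants carry insertions in the gene for RRP45B/CER7, a subunit of the RNA exosome core, in the lines cer7-gabi (3 libraries) and cer7-sail (2 libraries). The paper leaves it possible that cer7-gabi, its *cer7-3*, keeps some CER7. RST1, an ARM-repeat protein bound to the cytosolic exosome, was mutated in the T-DNA lines rst1-2 and rst1-3 (3 libraries each). Its partner RIPR was mutated in riprT and riprC (3 libraries each), which carry a single inserted T or C made with CRISPR-Cas9. Each mutant gene was thus represented by 2 alleles. Per the labels, each library came from a pool of 4 plants grown for 3 weeks with 12 h of light and 3 weeks with 16 h at 20 °C. The question was whether small RNAs from these microRNA targets accumulate when the cytosolic exosome or its partners are impaired.

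HD-ZIP III proteins are plant transcription factors that set the upper (adaxial) side of leaves and floral organs, pattern the vasculature and maintain meristems. *REV*, *PHB* and *PHV* act with much overlap in organ polarity and meristem formation, while *ATHB15* (also called *CORONA* or *CNA*) and *ATHB8* are known mainly for roles in the vasculature. Their mRNAs are cut by ARGONAUTE1 loaded with miR165 or miR166. The 3′-5′ exosome, helped by the Ski complex, is one of the routes that remove mRNA fragments. Fragments that persist can be copied into double-stranded RNA and diced into secondary small interfering RNAs. The table gives 1 sum per gene and library, so the position and the strand of the reads were not analysed here. Small RNA counts do not report how much mRNA a gene makes, and for the same reason they check neither the tissue nor the mutated genes of the labels.

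The microRNAs and the stretch of each mRNA that pairs with them are shown because they are what the 5 genes share. Sequences were read from the RefSeq annotation of TAIR10.1, with DNA letters. Capitals in the microRNAs mark the seed, bases 2 to 8 from the 5′ end.
ath-miR165a-3p: tCGGACCAggcttcatccccc
ath-miR166a-3p: tCGGACCAggcttcattcccc

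The miR165 sequence is made from 2 loci and the miR166 sequence from 7 loci. They have the same seed and differ by the substitution C17T, counted from the 5′ end with the miR165 base first. In the sites below, written 5′ to 3′ along the mRNA, capitals mark the bases that do not form a Watson-Crick pair with the closer of these microRNAs, which was miR165 for every gene but *ATHB15* and miR166 for *ATHB15*.
*REV* site: CTgggatgaagcctggtccgG
*PHB* site: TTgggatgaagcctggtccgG
*PHV* site: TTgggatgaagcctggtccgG
*ATHB15* site: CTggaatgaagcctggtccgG
*ATHB8* site: CTgggatgaagcctggtccgG

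Each site had 3 positions without a Watson-Crick pair, at bases 1, 20 and 21 of the microRNA, of which 1 was a G:U pair. Against the other microRNA there were 4, with base 17 added. At base 17 this was a G:U pair in every gene but *ATHB15*. The uninterrupted run of pairs was therefore the same in all 5 genes. Among 26710 genes whose mRNA was searched on its sense strand, 5 (0.0187%) had a site with at most 3 positions without a Watson-Crick pair. These were the 5 HD-ZIP III genes. Allowing 4 raised the number of genes to 12. A match of letters is a description and does not measure cutting.

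All 5 sites lay in the coding sequence and across an exon junction, with 11 bases in the first exon and 10 in the next. The *REV* site joined chr5:24398787-24398797 to chr5:24398889-24398898 (plus strand) over an intron of 91 bases. The *PHB* site joined chr2:14642656-14642666 to chr2:14642530-14642539 (minus strand), the *PHV* site chr1:10799435-10799445 to chr1:10799330-10799339 (minus strand) and the *ATHB15* site chr1:19413075-19413085 to chr1:19412976-19412985 (minus strand). Exons 4 and 5 were joined in these 4 genes. In *ATHB8* exons 5 and 6 were joined, from chr4:15866964-15866974 to chr4:15866872-15866881 (minus strand). The authors aligned reads without mismatches to the genome, where a small RNA that crosses one of these junctions has no contiguous match. The mRNA before the site held 926 (*PHV*) to 1353 bases (*ATHB15*), and the mRNA after it 2132 (*PHV*) to 2244 bases (*ATHB15*).

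Small RNAs on all 5 genes were rare in wild-type buds and rose in *cer7*, *rst1* and *ripr*. In the wild type the 5 genes held together 34 to 44 counts per library, 0.0147% to 0.0193% of all counts in the table. In *cer7* they held 0.761% to 0.972%, in *rst1* 0.492% to 0.739% and in *ripr* 0.546% to 0.785%. No mutant library came near the wild-type range. Separation of libraries, here and for single genes below, was not counted over all tested genes. Whether it is particular to these 5 genes was thus not tested. All 5 were called raised in each mutant. This call required a log2 fold change above 1 and p below 0.01 in the quasi-likelihood test of edgeR, after Benjamini-Hochberg adjustment over 2916 genes. Of all genes tested, 17.5% were called raised in *cer7*, 9.91% in *rst1* and 9.88% in *ripr*. For *cer7*, *rst1* and *ripr* in turn, the 5 genes had a median log2 fold change of 5.12, 4.67 and 4.70, and all tested genes of 0.07, 0.09 and 0.07. The 3 comparisons share the wild-type libraries and are not independent of each other.

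**Figure D1:**
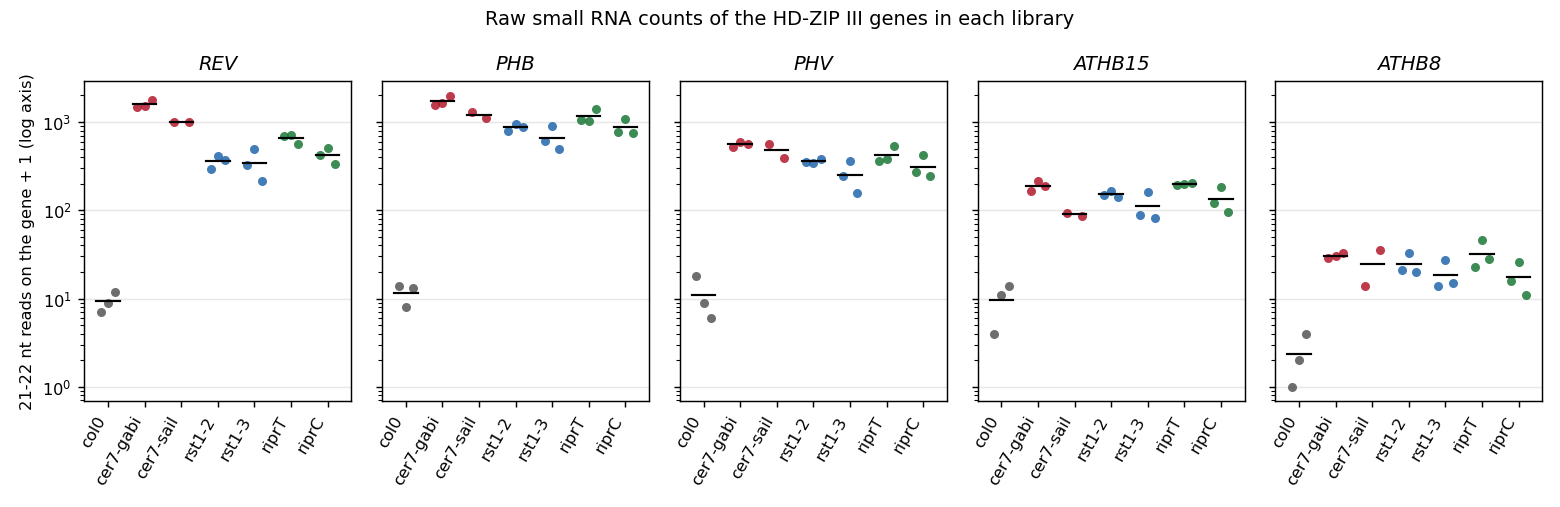
Raw counts of small RNAs of 21 and 22 nt plus 1 on a log axis for each HD-ZIP III gene, 1 point per library, with a bar at the mean of each of the 7 lines. Wild-type libraries (grey) held at most 17 counts on any of the 5 genes, and for each gene every mutant library lay above every wild-type library. How many of all tested genes separate in this way was not counted.

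*REV*, a regulator of organ polarity, meristems and vascular tissue, rose in *cer7* by about as much as *PHB*. Its counts were 6, 8 and 11 in the wild-type libraries. They were 1475, 1513 and 1758 in cer7-gabi and 1000 and 987 in cer7-sail. Counts in the *cer7* lines were thus 2 orders of magnitude above the wild type. In the *rst1* lines they were 293, 414 and 369 (rst1-2) and 325, 492 and 211 (rst1-3). In the *ripr* lines they were 686, 708 and 566 (riprT) and 421, 507 and 333 (riprC). The counts of the *cer7* libraries were the highest of all and did not overlap those of *rst1* or *ripr*. Relative to the wild type, *REV* rose on the log2 scale by 6.73 ± 0.25 (SE) in *cer7*, 5.17 ± 0.23 in *rst1* and 5.53 ± 0.24 in *ripr*, with adjusted p-values of 4.41e-20, 1.91e-17 and 3.99e-18 in edgeR's test. As a ratio of summed counts scaled by library, *REV* was 107 times higher in *cer7* than in the wild type. The 95% interval from counting error alone was 72.5 to 165.6, because the wild type had only 25 counts in all. Its fold change in *cer7* and that of *PHB* differed by less than 1 SE, and their order turned without col0 replicate 1 (6.56 for *REV*, 6.74 for *PHB*).

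*PHB*, which like *REV* promotes adaxial identity, had the most counts of the 5 genes in all 17 mutant libraries. The wild type had 13, 7 and 12 counts. There were 1572, 1626 and 1988 in cer7-gabi and 1303 and 1096 in cer7-sail. Counts of 794, 950 and 871 were found in rst1-2 and of 600, 904 and 488 in rst1-3. The *cer7* libraries lay above all *rst1* libraries. Those of *ripr* were 1050, 1019 and 1403 (riprT) and 765, 1087 and 747 (riprC), so that raw counts of *cer7* and *ripr* overlapped, in libraries of different totals. Its log2 fold changes were 6.55 ± 0.24 (SE) in *cer7*, 5.93 ± 0.23 in *rst1* and 6.10 ± 0.24 in *ripr* (adjusted p = 4.41e-20, 5.35e-19 and 2.79e-19 in edgeR's test). In *rst1* and *ripr*, *PHB* had the largest fold change of the 5 genes.

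*PHV*, the closest relative of *PHB* with the same site sequence, had smaller fold changes than *PHB*. It had 17, 8 and 5 counts in the wild type. The mutants had 393 to 595 in *cer7* (median 560, n = 5), 154 to 379 in *rst1* (median 345, n = 6) and 241 to 527 in *ripr* (median 369.5, n = 6). Every mutant library exceeded every wild-type library. In raw counts the mutants overlapped among themselves only through *ripr*, since the lowest *cer7* library lay above the highest of *rst1*. As a share of all counts of the library, *PHV* overlapped, at 0.109% to 0.183% in *cer7*, 0.0799% to 0.137% in *rst1* and 0.0918% to 0.149% in *ripr*. The log2 fold change was 5.12 ± 0.31 (SE), 4.67 ± 0.31 and 4.70 ± 0.31 in *cer7*, *rst1* and *ripr* (adjusted p = 5.40e-14, 3.85e-13 and 3.61e-13 in edgeR's test). Col0 replicate 1, with 17 of the 30 wild-type counts, weighed on these values, which were 5.76, 5.34 and 5.38 without it.

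*ATHB15*, a gene of vascular and meristem development whose site is the one closer to miR166, was raised in the 3 mutants. Wild-type libraries had 3, 10 and 13 counts. The range was 86 to 214 in *cer7* (median 165), 81 to 166 in *rst1* (median 143) and 95 to 201 in *ripr* (median 186.5). These ranges of counts overlapped with each other and not with the wild type. As a share of all counts of the library, *ATHB15* took 0.0280% to 0.0410% in *cer7*, below the 0.0413% to 0.0646% in *ripr* and overlapping the 0.0362% to 0.0610% in *rst1*. On the log2 scale the rise was 3.46 ± 0.29 (SE) in *cer7*, 3.68 ± 0.29 in *rst1* and 3.77 ± 0.29 in *ripr* (adjusted p = 8.36e-11, 2.58e-11 and 1.36e-11 in edgeR's test).

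*ATHB8*, which marks the cells that will form veins, had the fewest small RNAs. It had 0, 1 and 3 counts in the wild type, 13 to 34 in *cer7* (median 29), 13 to 32 in *rst1* (median 19.5) and 10 to 45 in *ripr* (median 23.5). Even the lowest mutant library was thus above the wild type. Its log2 fold change was 3.69 ± 0.57 (SE), 3.65 ± 0.56 and 3.59 ± 0.56 (adjusted p = 7.07e-06, 1.31e-05 and 1.48e-05 in edgeR's test). With 4 wild-type counts in all, the ratio of scaled sums, 13.5 in *cer7*, has a counting interval of 5.16 to 50.3, the widest of the 5 relative to its value. Col0 replicate 3 held 3 of these 4 counts, and without it the log2 fold changes were 4.81, 4.79 and 4.73.

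**Figure D2:**
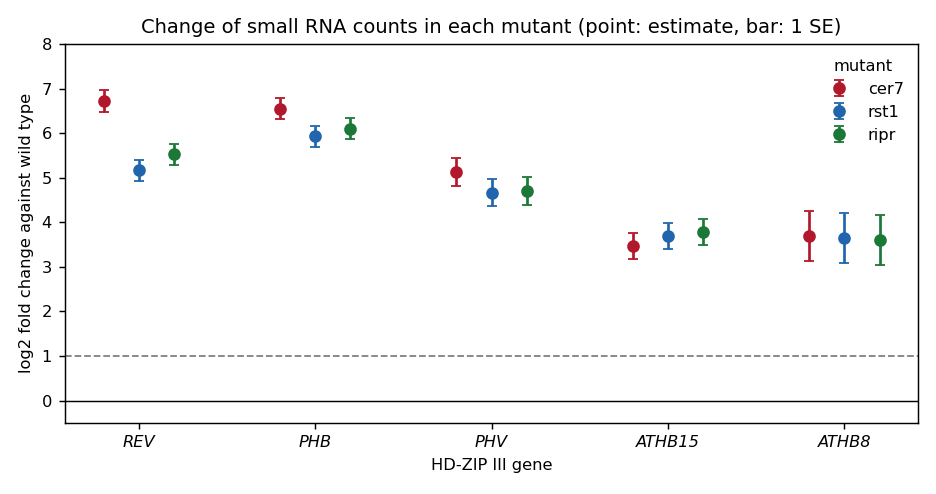
Log2 fold change of each HD-ZIP III gene in *cer7*, *rst1* and *ripr* against the wild type from the edgeR fit, with bars of 1 SE and a dashed line at the threshold of 1. All 15 estimates lie above 3, and the estimates of the mutants span the widest range at *REV* (6.73, 5.17 and 5.53).

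*ATHB15* and *ATHB8*, with the fewest counts, had smaller fold changes than *REV*, *PHB* and *PHV* in every mutant. The order of *PHV* and *ATHB8* turned in all 3 mutants without col0 replicate 3, when *PHV* was at 4.65, 4.22 and 4.26. The order between genes was not tested. Among all 2916 genes ordered by log2 fold change in *cer7*, *REV* stood 22nd, *PHB* 27th, *PHV* 52nd, *ATHB8* 108th and *ATHB15* 123rd. In *rst1*, *PHB* stood 22nd and *REV* 33rd, and in *ripr* *PHB* stood 18th and *REV* 26th.

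**Figure D3:**
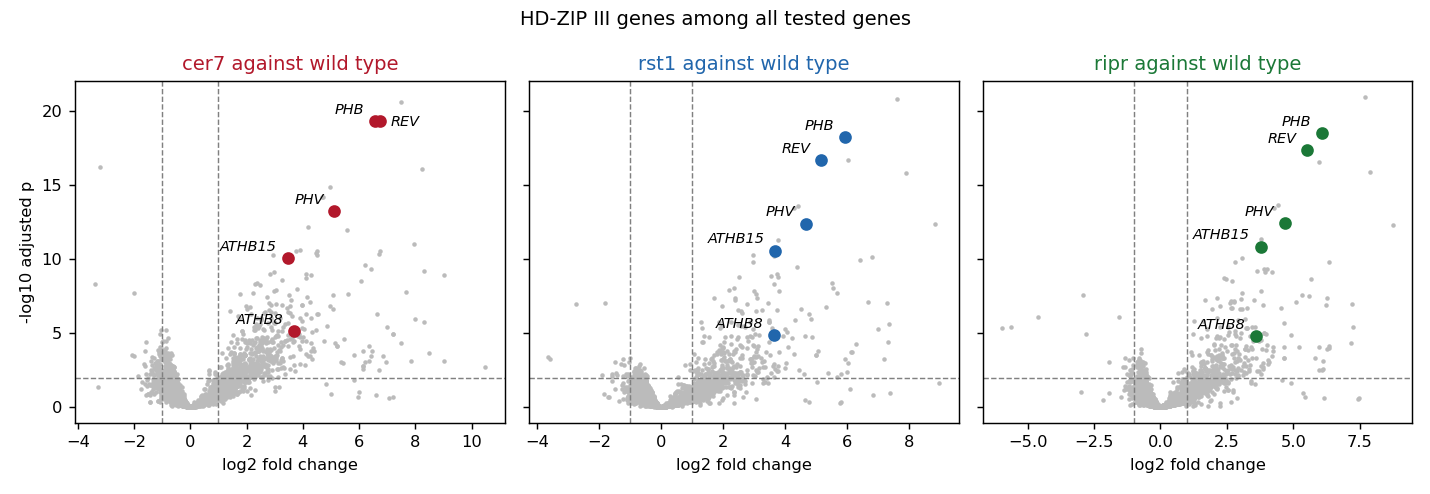
Log2 fold change (x axis) against −log10 of the adjusted p (y axis) for all 2916 tested genes (grey) in each mutant against the wild type, with the HD-ZIP III genes as large points and dashed lines at the thresholds. All 5 HD-ZIP III genes lie above the thresholds in each panel, with *REV* and *PHB* at the highest −log10 values of the 5 and *ATHB8* at the lowest.

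Each line was also compared with the wild type on its own, and all 5 genes were raised in each of the 6 mutant lines. The share of all tested genes called raised was 15.7% in cer7-gabi, 14.9% in cer7-sail, 8.20% in rst1-2, 7.65% in rst1-3, 8.37% in riprT and 7.65% in riprC. For *REV* the log2 fold change was 6.75 ± 0.25 (SE) in cer7-gabi and 6.69 ± 0.25 in cer7-sail. It was 5.62 ± 0.24 in riprT and 5.42 ± 0.24 in riprC. *PHB* reached 6.52 ± 0.25 in cer7-gabi and 6.60 ± 0.25 in cer7-sail. None of the 5 genes was called between the alleles of a gene by edgeR or by DESeq2, and 0 had an unadjusted p below 0.05 in edgeR. Of all tested genes, 0.343% were called in either direction between the *cer7* alleles, 0.206% between the *rst1* alleles and 0% between the *ripr* alleles. The largest differences between alleles were 0.48 ± 0.38 for *ATHB8* (riprT above riprC, adjusted p = 0.998) and 0.47 ± 0.26 for *ATHB15* (cer7-gabi above cer7-sail, adjusted p = 0.405), in edgeR's test. A p that misses the threshold does not show that the alleles were alike.

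*REV* was the one HD-ZIP III gene that differed between mutants by the thresholds used. In CPM, the count of a gene scaled to the summed counts on the tested genes after TMM normalization, it stood at 3870 to 4794 in *cer7* (mean 4225 ± 350 SD, n = 5). It stood at 1182 to 1971 in *rst1* (mean 1429 ± 288 SD, n = 6) and at 1510 to 2154 in *ripr* (mean 1839 ± 257 SD, n = 6). The ranges of *rst1* and *ripr* overlapped with each other and lay below that of *cer7*. The log2 difference was 1.56 ± 0.14 (SE) between *cer7* and *rst1* (adjusted p = 1.13e-09) and 1.2 ± 0.13 between *cer7* and *ripr* (adjusted p = 1.73e-07), both in edgeR's test. Of all tested genes, 2.09% were called higher in *cer7* than in *rst1* and 2.50% higher in *cer7* than in *ripr*. Against *ripr* the call was lost without TMM, with scaling by library size only (log2 difference 0.89), and when the test required a fold above the threshold itself (adjusted p = 0.879 in edgeR's glmTreat). The *cer7* libraries also had larger totals in the table (305475 to 522464 counts, against 192747 to 371040 in *rst1* and *ripr*) and TMM factors of 0.781 to 0.938 against 1.02 to 1.11. The part of this in these differences was tested only through the scaling alternatives.

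With TMM scaling, *PHB* was also higher in *cer7*, at 4159 to 5421 CPM against 2559 to 3622 in *rst1* and 2744 to 4054 in *ripr*, without overlap. The log2 difference of 0.62 ± 0.13 (SE) between *cer7* and *rst1* had an adjusted p of 0.00318 in edgeR's test but did not reach the fold threshold. Between *cer7* and *ripr* it was 0.45 ± 0.13 (adjusted p = 0.0346, same test). As a share of all counts of the library, *PHB* overlapped, at 0.311% to 0.427% in *cer7*, 0.247% to 0.345% in *rst1* and 0.263% to 0.386% in *ripr*. With scaling by library size only, the log2 differences were 0.31 (adjusted p = 0.105) and 0.14 (adjusted p = 0.502), in the same edgeR test. With TMM *PHB* thus differed in the same direction as *REV*, by less, and whether these 2 genes differed from each other was not tested.

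*PHV* had log2 differences of 0.46 ± 0.18 (SE, *cer7* to *rst1*, adjusted p = 0.151) and 0.42 ± 0.18 (*cer7* to *ripr*, adjusted p = 0.163) in edgeR's test. For *ATHB15* the estimates had the opposite sign, −0.22 ± 0.18 and −0.31 ± 0.18 (adjusted p = 0.538 and 0.305), and −0.54 and −0.62 with library size only (adjusted p = 0.0273 and 0.0102). *ATHB8* gave 0.04 ± 0.28 and 0.10 ± 0.28 (adjusted p = 0.962 and 0.858). None of these differences was called, which does not show that the mutants were alike at these genes.

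Between *rst1* and *ripr* none of the 5 genes was called by edgeR or by DESeq2, and 0.480% of all tested genes were called in either direction. *REV* had the largest difference, 0.36 ± 0.13 (SE) lower in *rst1* on the log2 scale (adjusted p = 0.404 in edgeR's test, unadjusted p below 0.05 as for 173 of the 2916 genes). The other 4 lay between −0.17 (*PHB*) and 0.06 (*ATHB8*).

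The make-up of the HD-ZIP III small RNAs was also compared. *REV* gave 33.7% to 39.2% of the counts on the 5 genes in *cer7*, 18.3% to 25.6% in *rst1* and 20.8% to 30.2% in *ripr*. *PHB* gave 40.9% to 43.9%, 46.6% to 51.5% and 43.4% to 52.4%. *ATHB15* made up 3.10% to 5.38% in *cer7* and 6.93% to 9.16% in *rst1*. Within a library, the ratio of *REV* to *PHB* counts does not depend on depth or scaling. This ratio was 0.938, 0.931 and 0.884 in cer7-gabi and 0.767 and 0.901 in cer7-sail. It was 0.369 to 0.544 in *rst1* (median 0.434) and 0.403 to 0.695 in *ripr* (median 0.508), below every *cer7* library. In the wild type it was 0.462, 1.14 and 0.917, from 6 to 13 counts per gene, which is too few to place it. These ratios follow from the counts already tested and are a description.

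**Figure D4:**
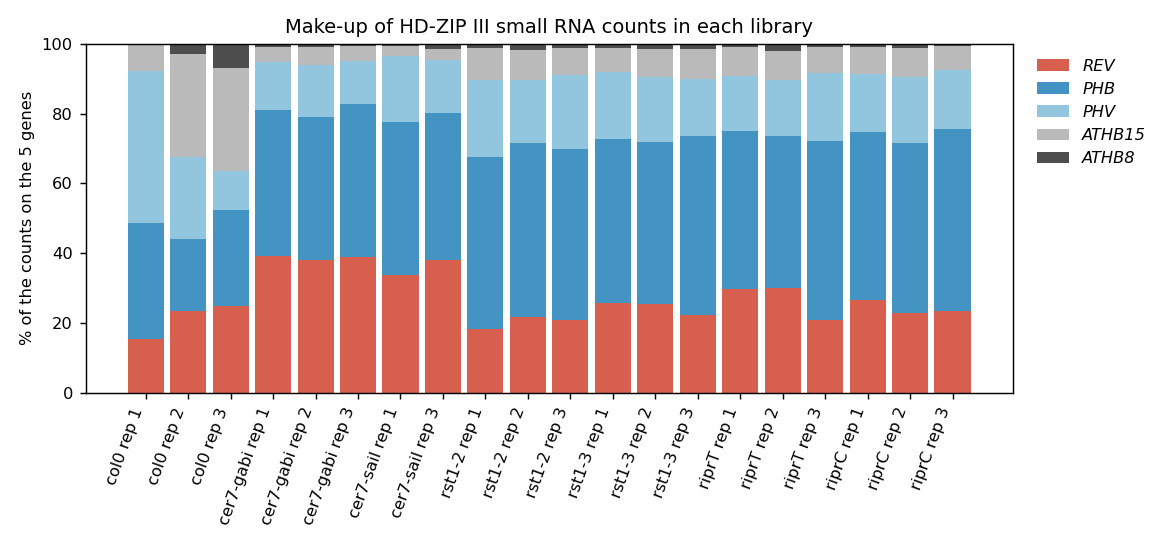
Percentage of the counts on the 5 HD-ZIP III genes that falls on each gene (stacked bars, y axis from 0 to 100%), 1 bar per library. *REV* takes 33.7% to 39.2% in the 5 *cer7* libraries and at most 30.2% in the 12 *rst1* and *ripr* libraries, while the wild-type bars rest on 34 to 44 counts each.

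Levels between genes were compared as CPM per kb of annotated exon sequence. In *cer7* the order was *PHB* (1526 ± 165.9 CPM per kb, SD, n = 5), *REV* (1192 ± 98.8), *PHV* (549.9 ± 104), *ATHB15* (125 ± 22.5) and *ATHB8* (27.8 ± 10.9). The ranges of *PHB* and *REV* overlapped over libraries, yet *PHB* was the higher in 5 of 5, and the other neighbours did not overlap. In *rst1* *PHB* led with 993.9 ± 127 CPM per kb (n = 6), and *REV* (403 ± 81.2) and *PHV* (399 ± 78.5) did not differ beyond their spread, with *REV* the higher in 4 of 6 libraries. In *ripr* the order was the same, with *REV* at 519 ± 72.5 and *PHV* at 409 ± 77.7 CPM per kb, overlapping. *ATHB15* (146 ± 27.7 in *rst1*, 155 ± 23.9 in *ripr*) and *ATHB8* (26.5 ± 6.71 and 25.3 ± 9.62) followed without overlap. In the wild type *PHB*, *PHV*, *ATHB15* and *REV* lay at means of 11.04 to 16.2 CPM per kb and could not be ordered.

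Paralogs share sequence, which bears on reads of this length. Of the 21-nt windows of the *PHB* transcript 4.81% also occurred elsewhere in the genome or in another member, and of those of *PHV* 10.3%, with 123 windows common to *PHB* and *PHV*. For *REV*, *ATHB15* and *ATHB8* the share was 0.691%, 0.610% and 0.500%. Small RNAs from shared windows cannot be assigned to 1 gene, and how the authors' unique mode placed them was not tested. *REV* (chr5:24396981-24402195, plus strand) also overlaps the end of *AT5G60700*, on the other strand, which had at most 6 counts in any library. The other 4 genes overlap no annotated gene.

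Genes around this pathway were counted from lists. The LITTLE ZIPPER genes (*ZPR*), whose small proteins bind and inactivate HD-ZIP III proteins, had 3 of 4 members in the table, and 0 of these passed the filter, with at most 3 counts in a library. The *KANADI* genes, which set the lower (abaxial) side of organs and oppose HD-ZIP III genes, had 0 of 4 past the filter and at most 14 counts. The *YABBY* genes, also abaxial, had 0 of 6 past it and at most 8 counts. Small RNAs on these polarity genes were thus too few in every genotype to pass the filter. The HD-ZIP III genes, with at most 17 counts in a wild-type library, passed it only with their counts in the mutants. Missing the filter thus means few counts in the mutants too, and no fold change is given for these polarity genes. Of *AS1* and *AS2*, adaxial regulators of leaves, *AS1* was tested and not called in any mutant. The HD-ZIP IV genes encode proteins with the same homeodomain, leucine zipper and START domains as HD-ZIP III proteins but no site for miR165 or miR166, and act in the epidermis. Among the 16 listed genes 4 passed the filter and 0 were called in either direction in each mutant. Of all tested genes, 19.8% (*cer7*), 10.6% (*rst1*) and 10.6% (*ripr*) were called, and 0 of 4 is near this share. The median log2 fold changes of these 4 were 0.25, 0.18 and 0.08 in *cer7*, *rst1* and *ripr*, against 5.12, 4.67 and 4.70 for HD-ZIP III. Of the 4, *FWA* and *HDG9* already had 41 to 129 and 60 to 80 counts in the wild type. *PDF2* was at 1.00 ± 0.36 (SE) in *cer7* (adjusted p = 0.028 in edgeR's test). Whether HD-ZIP IV and HD-ZIP III genes differed was not tested. The best site in any HD-ZIP IV mRNA had 6 positions without a Watson-Crick pair. The 9 genes for miR165 and miR166 are not analysed here.

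Of 6 genes of the microRNA machinery 3 passed the filter and 1 was raised in each mutant. This was *AGO1*, which encodes the protein that cuts HD-ZIP III mRNAs and is itself a microRNA target, with log2 fold changes of 2.29 ± 0.23 (SE), 2.18 ± 0.23 and 2.41 ± 0.23 in *cer7*, *rst1* and *ripr* (adjusted p = 4.64e-09, 1.27e-08 and 1.81e-09 in edgeR's test). *AGO10*, whose protein holds miR165 and miR166 away from AGO1 and so protects HD-ZIP III mRNAs, had 3 to 16 counts in a library and was not called. *DCL1* was not called either, at 0.64 ± 0.21 (SE) in *cer7* (adjusted p = 0.016 in edgeR's test), 0.51 in *rst1* and 0.37 in *ripr*. Of all tested genes, 17.5% (*cer7*), 9.91% (*rst1*) and 9.88% (*ripr*) were called raised, and 1 of 3 is near this share.

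Other microRNA targets were counted in the same way, beside the 17.5% (*cer7*), 9.91% (*rst1*) and 9.88% (*ripr*) of all tested genes called raised. All 3 auxin response factor genes cut through miR160 were raised in each mutant. *ARF10* rose by 4.73 (*cer7*), 6.04 (*rst1*) and 5.98 (*ripr*) on the log2 scale, and its small RNAs were lower in *cer7* than in *rst1* by a log2 difference of −1.31 (adjusted p = 5.80e-07) and than in *ripr* by −1.25 (adjusted p = 1.45e-06), both in edgeR's test. *REV* thus had its highest level in *cer7*, and *ARF10* its lowest among the mutants. *ARF16* (2.35, 3.05 and 3.08) and *ARF17* (2.85, 3.54 and 3.64) had smaller fold changes. Of the *HAM* genes, GRAS family regulators of meristems cut through miR171, 1 of 3 was raised in each mutant, *HAM1*, by 1.77, 1.71 and 1.68 on the log2 scale. *HAM2* had adjusted p-values of 0.00337, 0.00148 and 0.00452 in edgeR's test but log2 fold changes of 0.67, 0.77 and 0.67, under the threshold. Of the auxin receptor genes *TIR1* and *AFB1* to *AFB3*, targets of miR393, 0 of 4 were called in any mutant. *AFB2* had negative log2 fold changes of −0.79 in *cer7* (adjusted p = 0.00291) and −0.71 in *ripr* (adjusted p = 0.00871, edgeR's test), short of the threshold of −1. With 3 or 4 genes in a list, 0 or 1 raised is near the share over all genes. Whether these families differed from HD-ZIP III was not tested.

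The profile over the 20 libraries was compared between genes as centred log2 CPM, by the root-mean-square difference from the mean profile of the 5 genes. The 5 nearest genes outside the family were *SAG20* (0.25), *AT4G17410* (0.26), *AT5G47430* (0.38), *MT1A* (0.39) and *AT1G54400* (0.45), against a median of 1.71 over all other tested genes. Their log2 fold changes in *cer7* lay between 4.18 (*AT5G47430*) and 8.29 (*AT1G54400*). Within the family, *PHV* was the nearest to the mean (0.37), and *ATHB8* the farthest (0.71). Each member is part of this mean, so its distance is not independent of it. The closest pairs were *ATHB15* with *ATHB8* (0.46) and *REV* with *PHB* (0.49), and the most distant pair was *PHB* with *ATHB8* (1.26). These distances are on the log2 scale and are a description, since the libraries and the contrast with the wild type are common to all genes.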

How the data were processed

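The deposited table holds raw counts for 20 libraries, and all columns were used (0 left out). Per the methods and notes of the authors, reads were trimmed with cutadapt (version 1.18), aligned without mismatches to TAIR10 with ShortStack in unique mode, and those of 21 and 22 nt counted on genes. The counting tool, strand use and overlap handling are not given in the sources used here. With 1 length class, the totals of 192747 to 522464 do not measure sequencing depth. Counting intervals (exact binomial, 95%) cover counting error only, since no molecular identifiers were used. The paper gives another number of plants per pool than the labels, and describes biological replicates. All 19 pairs of replicates of an allele differed beyond sampling noise (3.79 to 11.8 in chi-square per degree of freedom). The cer7-gabi line is *cer7-3* of the paper by its collection.

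Genes were kept with filterByExpr (minimum count 10, minimum total 15), scaled with TMM and fitted by glmQLFit (robust) in edgeR (version 4.0.16), in 4 groups by mutated gene or 7 groups by line. P-values from glmQLFTest were adjusted over 2916 genes, with calls at 0.01 and a fold threshold of 1 on the log2 scale. SE is the log2 fold change divided by the root of F. DESeq2 (version 1.42.0), which the authors used, was an alternative, beside other scalings, filters, a replicate block, glmTreat and leaving out each library. The fit was also run on simulated counts. These had a common dispersion for all genes and as many genes raised as lowered, unlike these data, so no statement here rests on them. Sites were searched on spliced mRNAs of TAIR10.1 (26718 identifiers matched). Named were the 5 members, up to 4 called genes of each list, and the 5 nearest profiles. *AS1*, *AGO10*, *DCL1*, *HAM2*, *FWA*, *HDG9*, *PDF2*, *AT5G60700* and the *TIR1* and *AFB* genes were named after their values were seen. The members and lists were chosen with earlier results of these data known.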

Additional observations from a re-analysis of the deposited data

Results flagged for a closer look

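The libraries of each of the 5 genes were checked for a value far from the rest of its genotype, in 15 groups of 5 or 6 libraries (the wild type with 3 was not checked). Chance gives such a value in about 1 of 20 groups. The gap to the nearest library was large against the whole range in 2 groups. *REV* stood at 1970 CPM in rst1-3 replicate 2, above the other 5 *rst1* libraries at 1182 to 1458 CPM, and still below every *cer7* library. *PHV* stood at 2250 CPM in cer7-sail replicate 1, above the other 4 *cer7* libraries at 1489 to 1672 CPM.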

How the results depend on the processing

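The 15 fold changes against the wild type kept their direction and their side of the thresholds under all 30 alternatives tried (450 values): other scalings, filters and tools, a looser p threshold, glmTreat, the groups compared alone, the replicate block and each library left out. All 5 genes stayed raised in each mutant, with the replicate block too. The call of *REV* between *cer7* and *rst1* was kept in all 30. Between *cer7* and *ripr*, the number of HD-ZIP III genes called went from 1 to 0 with library size only (*REV* at 0.89) and with glmTreat. The size of *ATHB8* and *PHV* fold changes rested in part on 1 wild-type library each (without col0 replicate 3, *ATHB8* in *cer7* went from 3.69 to 4.81, and without col0 replicate 1, *PHV* from 5.12 to 5.76). Library size only moved the median of all genes for *cer7* against *ripr* from 0.03 to −0.27, and for *cer7* against *rst1* from 0.01 to −0.31. Scaling from genes called in no mutant moved it for *cer7* against the wild type from 0.07 to 0.23. In 58 of 900 values of the other comparisons, an uncalled difference changed sign, as for *ATHB8* between *cer7* and *rst1* (0.04, and −0.28 with library size only). Library series 1, 2 and 4 recur in the labels of all genotypes (cer7-sail lacks 2). The labels say that replicates were raised on separate dates and in separate chambers, but not that a number marks a shared date. Over 57 pairs of libraries with the same number, deviations from the group means had a median correlation of 0.07 (−0.16 to 0.27) and 14 exceeded 0.1, against 5 of 114 pairs with different numbers, and 17 of 20 libraries were closest to their own number. What libraries with the same number have in common was not tested. The main fit did not use the numbers, and the replicate block was run as an alternative. With the replicate block, no call of the 5 genes changed. The wild type had 25 to 32 counts on *REV*, *PHB*, *PHV* and *ATHB15* and 4 on *ATHB8*, which limits how well fold changes are known.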
